A study of Mus musculus with 8 samples.

Results

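The 10 genes described here encode tumour necrosis factor (Tnf), the protease that releases it (Adam17), its receptors (Tnfrsf1a and Tnfrsf1b), the adaptors and kinase that carry the receptor signal (Tradd, Traf2 and Ripk1) and RNA-binding regulators that limit the lifetime of Tnf mRNA (Zfp36, Zfp36l1 and Zc3h12a). They were chosen by symbol for their place in TNF biology, and are 10 of the 22013 genes in the deposited table. All 10 were expressed highly enough to be among the 10748 genes tested. The libraries came from RAW264.7, a mouse macrophage-like line derived from a leukaemia virus-induced tumour and no genetic change is labelled in either group. There were 4 libraries of cells given phosphate-buffered saline (PBS) and 4 of cells given recombinant follistatin-like 1 (rFSTL1) at 100 ng/mL for 24 h. FSTL1 is a secreted glycoprotein, and the comparison asks how the macrophage transcriptome differs after exposure to it. The labels do not say that libraries of a group came from separate cultures, so p-values measure only the spread between these libraries, which may be technical.

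TNF is made as a membrane-anchored trimer and is cut from the cell surface by ADAM17. Soluble TNF signals mainly through TNFR1 (Tnfrsf1a), whose death domain recruits TRADD, RIPK1 and TRAF2, while TNFR2 (Tnfrsf1b) has no death domain and binds TRAF2 directly. Macrophages are the chief source of TNF, and they hold its output down by decay of the mRNA. Tristetraprolin (Zfp36) and its relative ZFP36L1 bind AU-rich elements in 3' untranslated regions (UTRs) and recruit deadenylation enzymes, and Regnase-1 (Zc3h12a) is an endonuclease that cuts stem-loops in inflammatory mRNAs.

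The AU-rich elements are shown first because they are the feature on which the ZFP36 family acts, and because Tnf and the regulator Zfp36 both carry them. The motif ATTTA was searched on the transcript strand, and so was the longer TATTTAT, each copy of which contains an ATTTA. Overlapping copies were counted. For each gene the search used the annotated 3' UTR of its longest protein-coding transcript with a stop codon (GENCODE M21, GRCm38). A longer 3' UTR on a shorter transcript was not searched. Each line gives the 30-base window that holds most copies, with ATTTA in capitals.
Tnf, chr17:35199678-35199707, minus strand, bases 438 to 467 of the 3' UTR: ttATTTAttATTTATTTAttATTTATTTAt
Ripk1, chr13:34035857-34035886, plus strand, bases 3075 to 3104 of the 3' UTR: agtatcctatctatctATTTATTTATTTAt
Zfp36, chr7:28376962-28376991, minus strand, bases 567 to 596 of the 3' UTR: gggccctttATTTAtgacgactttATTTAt
Zfp36l1, chr12:80108433-80108462, minus strand, bases 1127 to 1156 of the 3' UTR: agcttATTTAacttatcaaaacgtATTTAt

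The Tnf 3' UTR, of 764 bases, held 8 copies of TATTTAT. Among the 1201 tested genes with a 3' UTR within 20% of that length, 0.0833% had as many and 19.7% had at least 1. Zfp36, with 774 bases, held 3 copies, a number reached by 0.905% of 1216 genes of like length, of which 19.9% held at least 1. Zfp36l1 held 3 copies in 1835 bases, reached by 3.49% of 1604 genes of like length, of which 37.0% held at least 1. Ripk1 held 5 copies in 4365 bases, reached by 1.74% of 806 genes of like length, of which 60.8% held at least 1. For the shorter ATTTA, Tnf held 8 copies, reached by 0.250% of genes of like length, and Zfp36l1 held 9, reached by 3.80%. Zfp36 held 3 copies of ATTTA, reached by 18.5%, and Ripk1 held 7, reached by 54.2%. The remaining 6 members had no TATTTAT. Of these, Zc3h12a had 3 copies of ATTTA, reached by 21.2% of genes of like length. Tnfrsf1b had 2, Adam17 and Traf2 had 1 each, and Tnfrsf1a and Tradd had 0. A match to these letters is a description of the sequence and not a measured binding site.

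The sequences of a second kind shown here are the quantitative PCR primers that the study lists for mouse Tnf. They were searched in 141767 annotated mouse transcripts, and the capital marks the base that differs between the reverse primer and the Adam17 site.
Tnf forward primer as listed: ggaacacgtcgtgggataatg
Tnf reverse primer as listed: ggcagactttGgatgcttctt
Site of the reverse primer in Adam17: ggcagactttAgatgcttctt

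The forward primer matched Adam17 without a mismatch, at bases 1006 to 1026 of its 4469-base transcript (exon 8 of 20; chr12:21345656-21345676, minus strand, GRCm38). The reverse primer matched Adam17 in exon 10 (bases 1198 to 1218; chr12:21340777-21340797) with 1 substitution, G11A, counted from 1 at the 5' end of the primer and read on the primer's strand. The span between the outer ends of both sites was 213 bases. In both protein-coding transcripts of Tnf, the best ungapped match of each primer had 8 mismatches. This is a comparison of letters only, and no PCR value was analysed here.

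The deposited libraries held 15062023 to 20234477 assigned reads, with overlapping ranges in the groups (15183118 to 20234477 for PBS and 15062023 to 19260960 for rFSTL1). Of 10 macrophage markers, 9 were tested and 0 were called; their summed level was 4699 to 4850 in PBS libraries, in CPM (read counts scaled to the size of each library), and 4761 to 4928 CPM in rFSTL1 libraries. Csf1r, the receptor for the macrophage growth factor, was at 1255 CPM in PBS cells and Cd68 at 896 CPM, while Adgre1 (F4/80) was at 3.43 CPM and Mrc1 was too low to be tested. Markers of other cell types were near 0: the lymphocyte markers Cd3e, Cd3g and Ms4a1 were at 0 in all 8 libraries and Cd79a reached at most 0.257 CPM (5 reads), and fibroblast markers summed to at most 1.28 CPM in any library, epithelial markers to at most 0.431 CPM and endothelial markers to 1.94 to 3.34 CPM. The rFSTL1 libraries differed more among themselves than the PBS libraries did. Between PBS pairs the chi-square per degree of freedom over genes was 3.04 to 4.22. In the rFSTL1 group, libraries 1 and 2 were 5.61 apart and libraries 3 and 4 were 4.52 apart. Libraries 3 and 4 were 6.15 to 19.2 apart from libraries 1 and 2. These distances do not say which pair departs. Values without rFSTL1 libraries 3 and 4 are given beside those of the members and of the genes on which the pathway lists turn. Because these are bulk libraries, fewer transcribing cells and less RNA per cell cannot be told apart.

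None of the 10 genes passed the test for a difference between rFSTL1 and PBS (edgeR quasi-likelihood test, Benjamini-Hochberg adjusted p under 0.05). The lowest adjusted p among them was 0.197, for Zfp36. Over all 10748 genes tested, 37 (0.344%) passed, of which 35 were higher after rFSTL1 (0.326% of genes tested). DESeq2 and limma voom also called 0 members, beside 1.83% and 4.22% of all genes tested. Those calls were less one-sided, with 136 higher and 61 lower by DESeq2 and 244 higher and 210 lower by limma voom. Unadjusted edgeR p was under 0.05 for 2 members, Tnf and Zfp36, beside 15.9% of all genes tested. The fold change was above 0 on the log2 scale for 6 members and below it for 4, beside 52% above 0 over all genes; the median was 0.02 over the members and 0.01 over all genes. The 95% confidence intervals of all 10 fold changes lay between 0.86-fold and 1.40-fold.

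**Figure D1:**
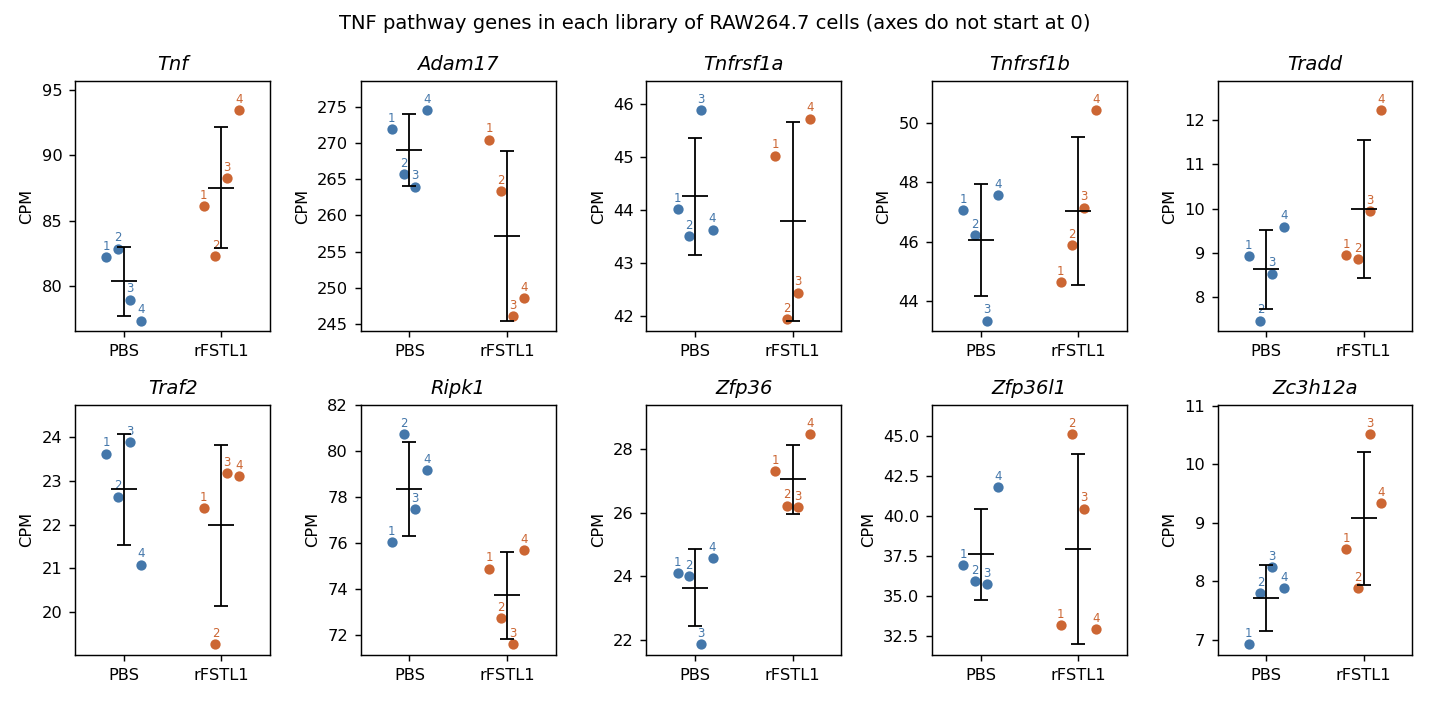
Each panel plots 1 of the 10 genes, with the level in CPM (TMM-scaled, axes not starting at 0) of the 4 PBS and 4 rFSTL1 libraries as points with their replicate numbers, and the group mean ± SD as bars. All 4 rFSTL1 points lie above the PBS points for Zfp36 and below them for Ripk1, and the groups overlap for the other genes.

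Tnf (ENSMUSG00000024401; chr17:35199381-35202007, minus strand, GRCm38) was at 82.2, 82.9, 79.0 and 77.3 CPM in PBS libraries 1 to 4 and at 86.1, 82.3, 88.3 and 93.5 CPM in rFSTL1 libraries 1 to 4. Of the rFSTL1 libraries, 3 were above every PBS library, and library 2 lay inside the PBS range. The means were 80.3 ± 2.64 CPM and 87.5 ± 4.67 CPM (SD, n = 4 each), a ratio of 1.09 with a 95% interval of 1.01 to 1.17. On the log2 scale the difference was 0.12 with a standard error of 0.05 (edgeR unadjusted p = 0.0227, Benjamini-Hochberg adjusted p = 0.247). The two-sided exact permutation test of log2(CPM + 1) gave p = 0.0571, where the smallest p that the 70 assignments of libraries allow is 0.0286. Each value rests on 1177 to 1821 reads. Without rFSTL1 libraries 3 and 4 the log2 difference was 0.07 with a standard error of 0.05 (edgeR adjusted p = 0.719).

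Adam17 (ENSMUSG00000052593; chr12:21323509-21373632, minus strand) is the TNF-converting enzyme. Its levels were 272, 266, 264 and 275 CPM in PBS libraries and 271, 263, 246 and 249 CPM in rFSTL1 libraries. The first rFSTL1 library lay inside the PBS range and the other 3 below it. The means of 269 ± 5.05 and 257 ± 11.7 CPM gave a log2 difference of -0.07 with a standard error of 0.04 (edgeR adjusted p = 0.464; exact permutation p = 0.114). Without rFSTL1 libraries 3 and 4 it was -0.01. The ratio of Tnf to Adam17 read levels within a library was 0.282 to 0.312 in PBS cells and 0.312 to 0.376 in rFSTL1 cells, the highest PBS library being at 0.3118 and the lowest rFSTL1 library at 0.3123; the ratio was not tested. The rFSTL1 libraries 3 and 4 had the highest ratios, 0.359 and 0.376.

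Neither receptor passed the test. Tnfrsf1a (ENSMUSG00000030341; chr6:125349362-125362484, plus strand), which carries the death domain, was at 44.0, 43.5, 45.9 and 43.6 CPM in PBS cells and at 45.03, 41.9, 42.4 and 45.7 CPM in rFSTL1 cells. Libraries 2 and 3 of the rFSTL1 group lay below the PBS range and the other two inside it. The 95% interval of the ratio was 0.914 to 1.07 (edgeR adjusted p = 0.907). Tnfrsf1b (ENSMUSG00000028599; chr4:145213463-145246870, minus strand), the receptor activated chiefly by membrane-bound TNF, was at 47.1, 46.2, 43.3 and 47.6 CPM in PBS cells and at 44.6, 45.9, 47.2 and 50.5 CPM in rFSTL1 cells. The highest value was in rFSTL1 library 4, and the other 3 lay inside the PBS range. Its ratio had an interval of 0.942 to 1.11 (edgeR adjusted p = 0.805). The log2 differences without rFSTL1 libraries 3 and 4 were -0.03 for Tnfrsf1a and -0.02 for Tnfrsf1b, in place of -0.02 and 0.03. The ratio of Tnfrsf1b to Tnfrsf1a was 1.04 ± 0.0660 in PBS libraries and 1.08 ± 0.0563 in rFSTL1 libraries (SD, n = 4 each), a difference smaller than the spread within either group.

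Among the signalling proteins, Ripk1 (ENSMUSG00000021408; chr13:34002363-34037147, plus strand), the kinase that sits at the choice between NF-κB signalling and cell death, was at 76.0, 80.8, 77.5 and 79.2 CPM in PBS cells. In rFSTL1 cells it was at 74.9, 72.7, 71.6 and 75.7 CPM, all 4 below the lowest PBS library. Such a lack of overlap, in either direction, was seen for 2 of the 10 members and for 8.16% of all genes tested. The means were 78.4 ± 2.05 and 73.7 ± 1.90 CPM (SD, n = 4 each), a ratio of 0.941 with an interval of 0.881 to 1.01. The edgeR adjusted p was 0.347, and the exact permutation p was 0.0286, the smallest that can be reached. Without rFSTL1 libraries 3 and 4 the log2 difference stayed at -0.09.

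Tradd (ENSMUSG00000031887), the death-domain adaptor of TNFR1, was at 8.93, 7.47, 8.54 and 9.59 CPM in PBS cells and at 8.95, 8.87, 9.94 and 12.2 CPM in rFSTL1 cells. Library 4 of the rFSTL1 group stood highest, and 2 of the 4 exceeded every PBS library. The ratio of 1.17 had an interval of 0.973 to 1.40, resting on 134 to 238 reads per library (edgeR adjusted p = 0.389). Without rFSTL1 libraries 3 and 4 the log2 difference was 0.05 in place of 0.22, and without library 4 alone it was 0.11. Traf2 (ENSMUSG00000026942), the ubiquitin ligase adaptor shared by both receptors, was at 21.1 to 23.9 CPM in PBS cells and 19.3 to 23.2 CPM in rFSTL1 cells, with overlapping groups and an interval of the ratio of 0.86 to 1.08 (edgeR adjusted p = 0.770). Its log2 difference, -0.05, was -0.0036 without rFSTL1 library 2 and -0.14 without rFSTL1 libraries 3 and 4.

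Zfp36 (ENSMUSG00000044786; chr7:28376784-28380253, minus strand), the mRNA of tristetraprolin, was at 24.1, 24.0, 21.9 and 24.6 CPM in PBS cells. In rFSTL1 cells it was at 27.3, 26.2, 26.2 and 28.5 CPM, each above every PBS library. The means were 23.6 ± 1.21 and 27.1 ± 1.09 CPM (SD, n = 4 each). The ratio was 1.15 with an interval of 1.04 to 1.27, and the log2 difference 0.20 with a standard error of 0.07. The exact permutation p was 0.0286, the smallest the design allows, while edgeR gave an unadjusted p of 0.00958 and an adjusted p of 0.197. Without rFSTL1 libraries 3 and 4 the log2 difference was 0.18 (edgeR adjusted p = 0.479). The ratio of Tnf to Zfp36 within a library, 3.15 to 3.61 in PBS cells and 3.14 to 3.37 in rFSTL1 cells, overlapped between the groups.

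Zfp36l1 (ENSMUSG00000021127), the ZFP36 relative, varied widely among the rFSTL1 libraries. It was at 36.9, 35.9, 35.7 and 41.8 CPM in PBS cells and at 33.1, 45.1, 40.5 and 32.9 CPM in rFSTL1 cells. Libraries 1 and 4 of the rFSTL1 group were below the PBS range and library 2 above it. The means of 37.6 ± 2.85 and 37.9 ± 5.96 CPM gave an interval of the ratio of 0.882 to 1.16 (edgeR adjusted p = 0.952). The log2 difference was 0.01, and 0.06 without rFSTL1 libraries 3 and 4.

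Zc3h12a (ENSMUSG00000042677), the Regnase-1 mRNA, was the least abundant member. It was at 6.92, 7.81, 8.24 and 7.89 CPM in PBS cells and at 8.55, 7.88, 10.5 and 9.34 CPM in rFSTL1 cells. All but library 2 of the rFSTL1 group exceeded every PBS library. The ratio of 1.18 had an interval of 0.994 to 1.40 from 114 to 201 reads per library (edgeR adjusted p = 0.330; exact permutation p = 0.0857). Without rFSTL1 libraries 3 and 4 the log2 difference was 0.09 in place of 0.24, and without library 3 alone it was 0.16.

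**Figure D2:**
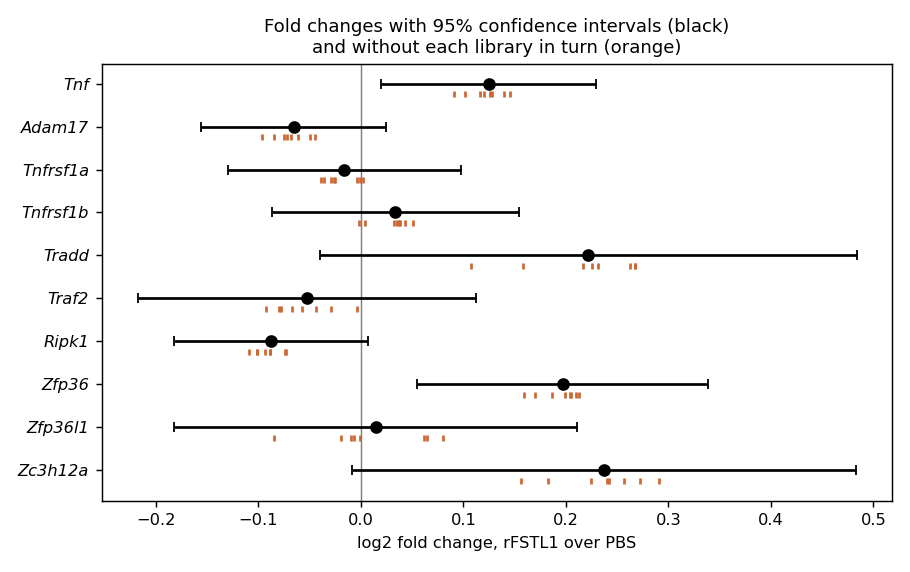
Points give the log2 ratio of rFSTL1 to PBS for each of the 10 genes, with 95% confidence intervals from the edgeR fit as bars and the values with each library left out in turn as orange ticks. The intervals of Tnf and Zfp36 lie above 0 before adjustment, and the other 8 include 0.

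To compare levels between genes, CPM was divided by the length of the longest annotated transcript in kilobases. On this scale Adam17 led the PBS libraries at 60.2 ± 1.13 CPM per kb, followed by Tnf at 49.0 ± 1.61 CPM per kb (SD, n = 4). The rFSTL1 means were 57.6 ± 2.62 and 53.4 ± 2.85 CPM per kb, and over all 8 libraries the ranges of these neighbours overlapped. Tnfrsf1a, at 20.5 ± 0.513 CPM per kb, was apart from the genes on either side. Zfp36l1, Ripk1 and Tnfrsf1b, at 12.6, 12.1 and 12.1 CPM per kb, did not differ beyond their spread. Zfp36 followed at 8.47 ± 0.435 CPM per kb. Traf2 and Tradd overlapped at 5.54 ± 0.307 and 5.11 ± 0.526 CPM per kb, and Zc3h12a was lowest at 2.80 ± 0.203 CPM per kb. With the mean length of the coding transcripts in place of the longest, the order was the same, but Adam17 rose to 82.8 CPM per kb, and its range over the 8 libraries, 75.8 to 84.5, no longer overlapped that of Tnf, 49.9 to 60.3. Tnfrsf1a rose to 38.7, Zfp36l1 to 26.1, Ripk1 to 20.4 and Traf2 to 8.78 CPM per kb. On this second scale Zfp36l1 (22.8 to 31.3), Ripk1 (18.6 to 21.0) and Tnfrsf1b (11.35 to 13.2) no longer overlapped. The range of Traf2 (7.42 to 9.19) left that of Tradd (4.42 to 7.23) and came to overlap that of Zfp36 (8.32 to 10.8).

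**Figure D3:**
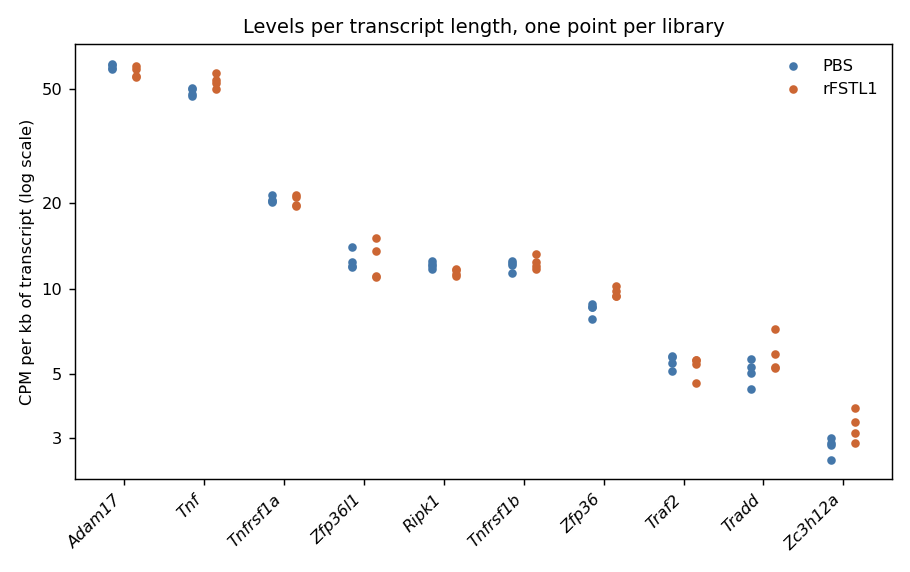
The length-scaled level of each gene (CPM per kilobase of its longest transcript, log axis) is plotted for each of the 8 libraries, PBS and rFSTL1 marked apart. Adam17 and Tnf stand at the top near 60.2 and 49.0 CPM per kb in PBS cells and Zc3h12a at the bottom at 2.80 CPM per kb.

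The genes whose level followed Tnf most closely across the 8 libraries, by Pearson correlation of log2(CPM + 1), were Alg1, a mannosyltransferase of N-glycan synthesis (r = 0.987), Sgsm1 (r = 0.979), the lysosomal protease Ctsb (r = 0.973), the stress kinase Map3k4 (r = 0.971) and Tbc1d10b (r = 0.969). Among the members, r with Tnf was highest for Zfp36 (0.796) and lowest for Adam17 (-0.768). These are descriptions over 8 libraries that share the group difference and the spread between rFSTL1 libraries, and are given without a p.

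The surrounding pathway was examined through 7 lists with 141 different genes, of which 105 were tested and 3 passed. Of the 26 genes of the TNF receptor signalling complexes, all tested, 0 passed and 4 had an unadjusted p under 0.05 (beside 15.9% of all genes tested), with 12 above and 14 below 0 and a median log2 difference of -0.02. The smallest p-values there belonged to Rnf31 (HOIP), the catalytic subunit of the linear ubiquitin ligase, and to Tnfaip3 (A20), the enzyme that edits ubiquitin chains. Rnf31 averaged 20.5 ± 1.57 CPM in PBS cells and 25.5 ± 3.37 CPM in rFSTL1 cells (edgeR adjusted p = 0.139), and Tnfaip3 averaged 13.8 ± 0.308 and 15.9 ± 1.19 CPM (edgeR adjusted p = 0.243). Neither gene overlapped between the groups, as was the case for 3 of the 26, beside 8.16% of all genes tested. By DESeq2 0 genes of the list passed, and by limma voom 1 did, Rnf31, beside 1.83% and 4.22% of all genes tested. Leaving out rFSTL1 libraries 3 and 4 took the log2 difference of Rnf31 from 0.32 to 0.16 and that of Tnfaip3 from 0.21 to 0.16.

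Of 9 genes of ADAM17 maturation and control, 8 were tested and 0 passed, with 4 at an unadjusted p under 0.05 (beside 15.9% of all genes), 2 without overlap (beside 8.16% of all genes), 5 above 0 and a median of 0.10. Frmd8, the protein that keeps the ADAM17 and iRhom complex at the cell surface, was at 0.20 with a standard error of 0.06 on the log2 scale (edgeR adjusted p = 0.172). Rhbdf2 (iRhom2), which carries ADAM17 out of the endoplasmic reticulum in macrophages, was at 0.16 with a standard error of 0.06 (edgeR adjusted p = 0.218). Both were at 0.08 when rFSTL1 libraries 3 and 4 were left out. DESeq2 called 0 genes of the list and limma voom 1, Frmd8, beside 1.83% and 4.22% of all genes.

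Of 39 genes of the mRNA decay machinery, 38 were tested and 0 passed, with 9 at an unadjusted p under 0.05 (beside 15.9% of all genes), 2 without overlap (beside 8.16%), 15 above and 23 below 0 and a median of -0.02. The Roquin genes, whose proteins bind a stem-loop in the Tnf 3' UTR, had the smallest p-values. Rc3h2 averaged 74.5 ± 3.90 CPM in PBS cells and 63.6 ± 4.65 CPM in rFSTL1 cells, without overlap (log2 difference -0.23, standard error 0.06, edgeR adjusted p = 0.0993). Rc3h1 averaged 149 and 132 CPM (log2 difference -0.18, standard error 0.06, edgeR adjusted p = 0.164). Leaving out rFSTL1 libraries 3 and 4 gave -0.16 for Rc3h2 and -0.11 for Rc3h1. DESeq2 called 1 gene of the list, Rc3h2, and limma voom called both Roquin genes, beside 1.83% and 4.22% of all genes.

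The 3 genes that passed all stood in the list of mRNAs known as tristetraprolin targets, where 12 of 20 were tested. The 3 calls are 25% of the 12, beside 0.344% of all genes tested, and all 3 were higher. Unadjusted edgeR p was under 0.05 for 7 of the 12, beside 15.9% of all genes. The groups did not overlap, in either direction, for 5, beside 8.16% of all genes. The median log2 difference of the list was 0.33 beside 0.01 over all genes, with 10 above 0 and 2 below. The list was written with an earlier account of these libraries known, so it is not independent evidence of its direction. Ccl3 (MIP-1α), a chemokine for monocytes, rose from 161 ± 7.03 to 211 ± 14.2 CPM (log2 difference 0.40, standard error 0.05, edgeR adjusted p = 0.00363). Ccl4 (MIP-1β), its neighbour, rose from 51.9 ± 5.24 to 74.2 ± 8.98 CPM (log2 difference 0.51, standard error 0.08, edgeR adjusted p = 0.0151). Ier3, an immediate early gene, rose from 35.3 ± 6.46 to 54.7 ± 5.98 CPM (log2 difference 0.63, standard error 0.11, edgeR adjusted p = 0.0186). The log2 difference of Tnf, the best studied target, was 0.12, below that of each of these 3 genes. When rFSTL1 libraries 3 and 4 were left out, the log2 differences were 0.42 for Ccl3, 0.57 for Ccl4 and 0.74 for Ier3. Ccl3 passed in every one of the 17 alternatives. Ier3 lost its call without PBS library 2, Ccl4 without PBS library 4 or rFSTL1 library 3, and both lost it without PBS library 3. DESeq2 called 5 genes of the list and limma voom 6, beside 1.83% and 4.22% of all genes; Plaur, the urokinase receptor, and Cxcl2 were among both. The sixth gene called by limma voom was Cd83, a marker of mature dendritic cells, which stood lower in all 4 rFSTL1 libraries than in any PBS library, with means of 23.8 ± 0.621 CPM in PBS cells and 19.9 ± 1.15 CPM in rFSTL1 cells (log2 difference -0.26, standard error 0.07, edgeR adjusted p = 0.115). Cd83 and Plaur are named here after their values were seen.

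Il1b, Il6, Il10, Csf2 and Cxcl1, other tristetraprolin targets, had at most 3 reads in any library and were not tested. Il1a, Lif and Il23a, with at most 9, 9 and 5 reads in a library, were not tested either. Of 14 Regnase-1 targets, 7 were tested and 0 passed, with 2 at an unadjusted p under 0.05 (beside 15.9% of all genes), 2 without overlap (beside 8.16%), 5 above 0 and a median of 0.12. Cxcl2, a neutrophil chemokine, averaged 5.07 CPM in PBS cells and 7.92 CPM in rFSTL1 cells (edgeR adjusted p = 0.118) and was called by DESeq2 and limma voom (1.83% and 4.22% of all genes), and Bcl3, an atypical IκB protein, averaged 1.495 and 2.39 CPM (edgeR adjusted p = 0.205). Their log2 differences of 0.65 and 0.70 were 0.79 and 0.32 when rFSTL1 libraries 3 and 4 were left out. Of 15 other TNF family ligands 6 were tested, and of 23 other TNF family receptors 10 were tested. By edgeR, DESeq2 or limma voom 0 passed in either list, beside 0.344%, 1.83% and 4.22% of all genes tested. Unadjusted edgeR p was under 0.05 for 0 and 1 of them, beside 15.9% of all genes. Log2 differences were above 0 for 5 ligands and 8 receptors, beside 52% of all genes, with medians of 0.13 and 0.09. Tnfsf9 (4-1BB ligand) and Tnfsf12 (TWEAK) had log2 differences of 0.13 and 0.16 (edgeR adjusted p = 0.386 and 0.489). Tnfrsf9 (4-1BB) averaged 0.458 and 1.01 CPM with at most 20 reads in a library (edgeR adjusted p = 0.289), and Tnfrsf23, a decoy receptor, had a log2 difference of 0.12 (edgeR adjusted p = 0.386).

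**Figure D4:**
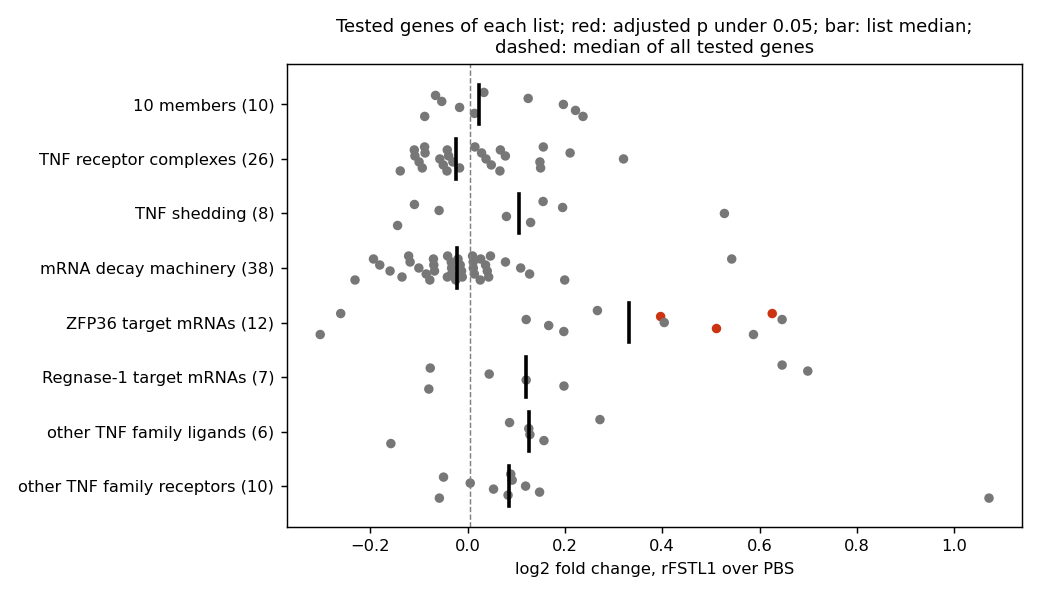
Each point is 1 tested gene of a pathway list, placed by its log2 ratio of rFSTL1 to PBS, with list medians as bars, the 10 members in the top row, the median of all genes dashed and adjusted p under 0.05 in red. The 3 genes that passed the test, Ccl3, Ccl4 and Ier3, stand in the list of tristetraprolin targets, whose median is 0.33.

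Finally, all tested genes were grouped by the motif that the Tnf, Ripk1, Zfp36 and Zfp36l1 mRNAs carry. Of the 10603 with an annotated 3' UTR, 7428 held no TATTTAT and 413 held 3 or more. The median log2 difference was 0.02 for genes without a copy, -0.02 for the 2078 with 1, -0.04 for the 684 with 2 and -0.06 for the 413 with 3 or more. In the last class 32.0% of genes were above 0, beside 56.9% of genes without a copy. The test was passed by 4 of the 413 (0.969%) and by 19 of the genes without a copy (0.256%). The difference rested on rFSTL1 libraries 3 and 4. Relative to the PBS mean, the median of genes with 3 or more copies was -0.02 and -0.01 in rFSTL1 libraries 1 and 2, inside the PBS range of -0.04 to 0.02, and -0.08 and -0.12 in libraries 3 and 4. The length of the 3' UTR moved with the classes, from a median of 846 bases without a copy to 3358 bases with 3 or more. Within 3' UTRs of 2000 to 4000 bases the medians were -0.02 for genes without a copy and -0.06 for the 158 with 3 or more. The part of 3' UTR length in this pattern was not tested beyond that range. Tnf, Zfp36 and Zfp36l1, at 0.12, 0.20 and 0.01, lay above the median of the class that they belong to, and Ripk1, at -0.09, lay below it.

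**Figure D5:**
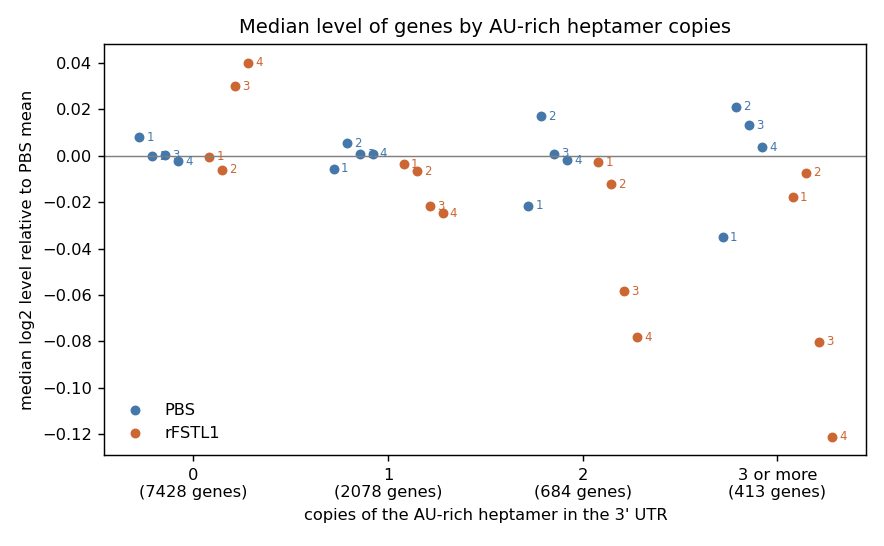
For genes with 0, 1, 2 and 3 or more copies of TATTTAT in the 3' UTR, the points give the median log2 level relative to the PBS mean in each of the 8 libraries. The classes lie within 0.04 of 0 in PBS libraries and rFSTL1 libraries 1 and 2, and the class with 3 or more copies reaches -0.08 and -0.12 in rFSTL1 libraries 3 and 4.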

How the data were processed

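Poly(A) RNA of RAW264.7 cells was sequenced in 8 libraries on an Illumina NovaSeq instrument after preparation with a kit that does not mark strand. The authors deposited estimated counts per gene (expected counts), not normalized, in 1 table for all libraries; 13% of the nonzero values were not whole. Bowtie2 2.2.8, HISAT2, StringTie 1.3.1 and DESeq2 are named in the submitters' processing notes; the genome build is not given in the sources used here. Coordinates and 3' UTRs came from GENCODE M21 on GRCm38 and were joined by Ensembl identifier.

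Values were rounded to whole counts, since the test was planned for counts, and 0 per-sample columns were left unused. The table listed 112 rows without a symbol, which kept their identifiers, and 17 symbols shared by several identifiers. Genes were kept by filterByExpr (minimum count 10), leaving 10748 of 22013. Groups were compared with the quasi-likelihood test of edgeR 4.0.16 (R 4.3.3) with TMM scaling, all 8 libraries, no covariates and Benjamini-Hochberg adjustment over all genes tested. CPM values use TMM-scaled library sizes. Totals of 15062023 to 20234477 counts set the precision, and the biological coefficient of variation was 0.0605. Exact permutation tests (SciPy 1.17.1) used log2(CPM + 1), two-sided. The script was tested on simulated data. Replicate numbers were not used to pair the libraries in the main fit.

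The members and lists were chosen with earlier results of these data known. Named genes were the members, in each list every gene with adjusted p under 0.05 or else the 2 with the smallest p, and the 5 genes closest to Tnf. The 16 alternatives chosen at the outset covered DESeq2 1.42.0, limma 3.58.1 (voom with quality weights), other scalings and filters, each library left out and a replicate block. Leaving out rFSTL1 libraries 3 and 4 together, and the 3' UTR length range, were added after the data were seen. The grouping of tested genes by TATTTAT copies was not planned at the outset either. No comparison columns of the authors were used. The summed level of the lymphocyte markers is not reported here.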

Additional observations from a re-analysis of the deposited data

How the results depend on the processing

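No member passed the test in any of the 17 alternatives. Over all genes the count of calls, 37, became 197 with DESeq2, 454 with limma voom, 56 with upper-quartile scaling, 127 with every gene of at least 1 count kept and 11 to 99 with single libraries left out (11 without PBS replicate 2, 99 without rFSTL1 replicate 1); the cause was not tested. Of the pathway list genes 3 passed, 6 with DESeq2, 10 with limma voom and 1 to 4 with single libraries left out. The log2 difference of Tnf kept its sign throughout, between 0.09 and 0.15 with single libraries left out and 0.07 without rFSTL1 replicates 3 and 4. Of 170 fold-change values of members, 8 turned sign, all in genes near 0. With single libraries left out Tnfrsf1a ranged from -0.039 to 0.0023 (without PBS replicate 3), Tnfrsf1b from -0.0021 (without rFSTL1 replicate 4) to 0.051 and Zfp36l1 from -0.085 to 0.080. Tnfrsf1b was at -0.023 without rFSTL1 replicates 3 and 4. Zfp36l1 was at -0.00076, -0.0065 and -0.0099 without PBS replicates 1, 2 and 3, and at -0.085 and -0.020 without rFSTL1 replicates 2 and 3. Correlations of the deviations of same-numbered libraries were -0.034 to 0.014, so no shared deviation was seen. They cannot show whether same-numbered libraries were handled together. With the replicate block 41 genes passed and the Tnf difference was 0.12 (edgeR adjusted p = 0.283). Genes with fewer than about 10 reads were not tested.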

Other observations

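The primers that the study lists for 19 mouse genes were searched in the same annotated transcripts, allowing no mismatch. For 15 pairs both primers lay in the listed gene. For 3 further pairs both lay only in another gene: the pair listed for Il10 in Il10ra (the Il10 receptor), the pair for Il6 in Ppil6 and the pair for Nos2 in Inpp5a. Il10 had 0 reads in all 8 libraries while Il10ra averaged 20.8 ± 1.68 CPM in PBS cells and 23.5 ± 1.15 CPM in rFSTL1 cells (SD, n = 4 each; edgeR adjusted p = 0.288). Il6 had at most 2 reads in a library and Ppil6 had 0. Nos2, the inducible nitric oxide synthase, rose from 6.41 ± 1.73 to 12.3 ± 2.53 CPM (log2 difference 0.93, standard error 0.17, edgeR adjusted p = 0.0299, and a log2 difference of 1.11 without rFSTL1 libraries 3 and 4), while Inpp5a averaged 4.11 ± 0.482 and 5.18 ± 0.591 CPM (edgeR adjusted p = 0.287). None of these values says which product a PCR yielded.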
